A study of Mus musculus with 6 samples.

Results

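Lysosomal acidification and digestion were followed here through 29 genes in sorted cells from mouse melanomas. They are 14 subunits of the vacuolar ATPase (V-ATPase) and its 2 accessory proteins, 4 lysosomal membrane proteins, 7 hydrolase or activator genes, the ion channel gene Mcoln1 and the transcription factor gene Tfeb. The genes were chosen by symbol, and each symbol matched 1 of the 54532 Ensembl gene IDs in the deposited expression table. RNA was sequenced from 3 libraries of cells out of tumours of Gli2CA cells and 3 libraries out of tumours of NTC cells. Both were BRAFV600EPTEN-/- melanoma cells, Gli2CA with an active Gli2 mutation and NTC with a non-targeted control, and the labels say no more of either alteration or of whether a line was 1 clone. Both were cultured with puromycin, and 1000000 cells in Matrigel were implanted into C57Bl/6 mice, whose tumours were taken on day 28. The labels give neither the age of the mice nor which mouse each library came from, so the spread behind each p-value, between libraries, may be technical. The engineered cells were the tumour cells, and the RNA came from cells that the labels call dendritic cells, sorted on the single marker CD11c, which some macrophages and monocytes also carry.

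The V-ATPase is a rotary proton pump. Its cytosolic V1 sector burns ATP and turns a ring in the membrane-bound V0 sector, which carries protons into the lysosome, and the low pH reached there switches on the acid hydrolases. Tfeb, a basic helix-loop-helix factor, binds a short palindrome in the promoters of many of these genes and is held in the cytosol while the kinase mTORC1 is active. Dendritic cells are known for milder lysosomes than macrophages, which spares peptides for presentation, and for raising V-ATPase assembly when they mature.

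The 6 libraries held about 18780000 to 29130000 fragments, recovered from the steps in the deposited FPKM values (fragments scaled by transcript length and library total). In NTC 1 and NTC 3, 434 and 207 genes lay under 0.1 FPKM although every other library had at least 5 FPKM, against 1 to 8 such genes in the other 4 libraries. Itgax, which encodes CD11c, stood at 145, 224 and 118 FPKM in the Gli2CA libraries and 115, 117 and 62.4 FPKM in the NTC libraries. The dendritic cell genes Flt3 and Zbtb46 were above 0 in all 6 libraries, and so were the macrophage complement genes C1qa, C1qb and C1qc and the T cell receptor gene Trac, so markers of several cell types were present in every library. In such bulk samples fewer cells of a type and less RNA per cell cannot be told apart.

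Promoter windows were shown for the genes that hold the core of the palindrome bound by Tfeb, because a binding site for Tfeb is what such genes are best known to share. RefSeq windows on GRCm38.p6, from 250 bases before to 50 bases after each transcription start, were found for 23 of the 29 genes, the others being Atp6v0d2, Atp6v1b2, Atp6v1c1, Atp6v1g1, Atp6v1h and Asah1. Each motif searched reads the same on both strands, and each longer one contains the shorter. The 6-base core CACGTG was present in 8 of the 23 genes (34.8%) and in 2187 of 27025 genes with a window (8.09%). The 8-base form TCACGTGA was present in 4 of 23 (17.4%), against 304 of 27025 (1.12%). The 10-base form, which is the core between GT on its left and AC on its right, was in 0 of 23 and in 100 of 27025 (0.370%). Lamp1 held 4 copies of the core, and Mcoln1 and Atp6v0b held 2 each. One 30-base stretch is printed per gene, with the longest of the 3 motif forms present in capitals.
Mcoln1: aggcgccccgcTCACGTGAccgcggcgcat
Atp6v0d1: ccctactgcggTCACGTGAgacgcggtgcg
Atp6v1a: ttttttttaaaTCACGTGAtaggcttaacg
Atp6v0e: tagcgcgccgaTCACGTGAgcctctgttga
Lamp1: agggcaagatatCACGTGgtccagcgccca
Atp6v0b: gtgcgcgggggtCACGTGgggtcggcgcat
Glb1: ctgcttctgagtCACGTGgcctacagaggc
Gaa: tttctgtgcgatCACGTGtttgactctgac
The first 4 hold the 8-base form and lie at chr8:3500462-3500491 (plus strand), chr8:105566050-105566079 (minus strand), chr16:44139373-44139402 (minus strand) and chr17:26676387-26676416 (plus strand). The 4 that follow hold only the core and lie at chr8:13159088-13159117 (plus strand), chr4:117887348-117887377 (minus strand), chr9:114401018-114401047 (plus strand) and chr11:119267811-119267840 (plus strand). The log2 difference between groups, Gli2CA minus NTC, had a median of 0.06 in the 8 genes with the core (from -0.79 to 3.13) and 0.04 in the 15 genes with a window and no core (from -0.91 to 1.27). The centres of the printed matches lay from -137 to 6 bases relative to the transcription start. A match is a run of letters and says nothing of binding.

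None of the 29 genes differed between Gli2CA and NTC past the threshold. By limma on log2(FPKM + 1), adjusted over the 12266 genes that averaged 1 FPKM or more, 0 of 29 reached an adjusted p of 0.05, where 0 of all 12266 did (0.0%). The smallest adjusted p was 0.205, for Cd63. All 29 passed the level filter, Atp6v0d2 only through 1 Gli2CA library. At an unadjusted p under 0.05 there were 4 genes, Cd63, Lamp2, Atp6v0c and Gaa, all higher in Gli2CA. That is 13.8% of the 29, against 10.6% of all genes tested in either direction, 7.82% on the higher side and 2.81% on the lower. Over all genes tested, 959 higher and 345 lower stood at that level, and after quantile normalization 773 higher and 483 lower. Leaving out Gli2CA 1 took the 4 to 1, and leaving out Gli2CA 2 took them to 2. The voom method on the recovered reads also gave 0 at the adjusted threshold and 4 at the unadjusted one. The 3 Gli2CA libraries lay wholly above the 3 NTC libraries in Cd63, Lamp2, Atp6v0c and Atp6ap1 and wholly below them in none. These 4 are 13.8% of the set, where 16.6% of all genes tested had groups without overlap, 10.9% with Gli2CA higher and 5.79% with Gli2CA lower.

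The set was less variable than most genes. Its median limma standard error was 0.34 on the log2 scale, against 0.83 over all genes tested. The span from the lowest to the highest of the 6 libraries had a median of 1.06 log2 units, against 2.71 over all genes tested and 1.27 over the 2645 genes with a mean of 50 FPKM or more. Mean levels ran from 2.20 FPKM for Atp6v0d2 to 1224 FPKM for Psap, with 19 of the 29 genes at 100 FPKM or more. The log2 difference had a median of 0.10 over the 29 genes and 0.25 over all genes tested, and it was positive in 18 of the 29 (62.1%) and in 59.7% of all genes. After quantile normalization the median over all genes tested was -0.03, so a gene's place relative to that median depends on the scaling.

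**Figure D1:**
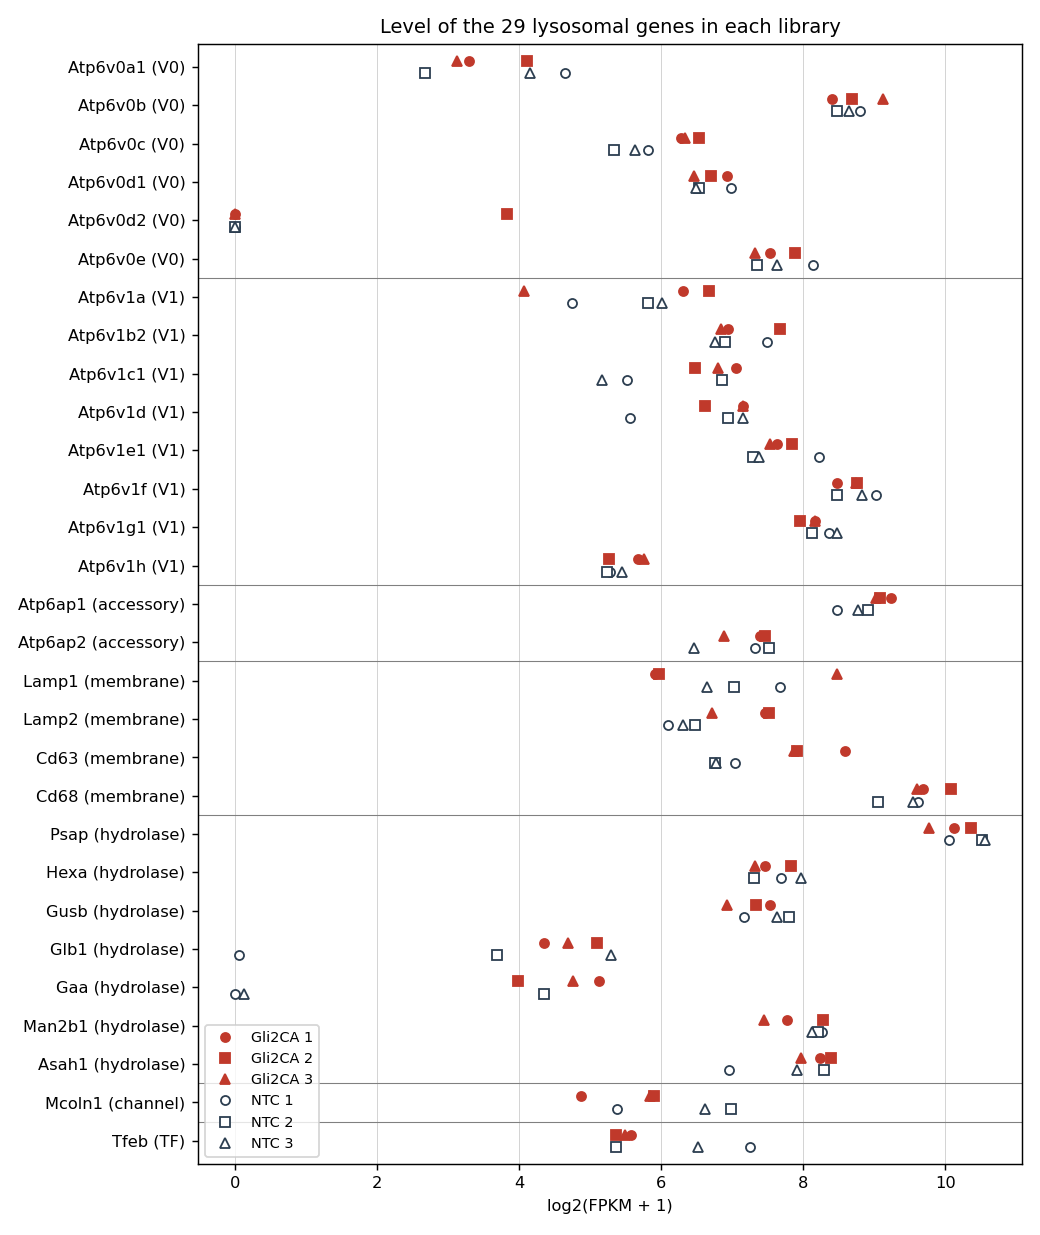
Level of each of the 29 genes as log2(FPKM + 1) on the x axis, 1 row per gene grouped by role, with filled red symbols for the Gli2CA libraries and open symbols for the NTC libraries. Cd63, Lamp2, Atp6v0c and Atp6ap1 are the rows in which every red symbol lies right of every open one, and Glb1 and Gaa have NTC libraries near 0.

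Among the lysosomal membrane proteins, Cd63 and Lamp2 had higher means in Gli2CA without overlap between the groups, and Lamp1 and Cd68 overlapped. Cd63 encodes a tetraspanin of late endosomes, exosomes and melanosomes and lies on chromosome 10, 128900989 to 128912822 (GRCm38, GENCODE M21). It had 383, 239.8 and 234 FPKM in the Gli2CA libraries, against 131, 108 and 108 FPKM in the NTC libraries. Every Gli2CA library had more than every NTC library, and Gli2CA 1 stood highest. The means were 286 ± 84.7 FPKM in Gli2CA and 116 ± 13.3 FPKM in NTC (SD, n = 3 each), which differ by 1.27 ± 0.28 on the log2 scale (limma SE and adjusted p = 0.205). That difference stayed between 1.03 and 1.39 on leaving out each library in turn. A pseudogene copy, Cd63-ps, had at most 1.90 FPKM. Melanoma cells also make CD63, and the melanocyte and neural crest factor gene Sox10 had 19.8, 12.1 and 18.4 FPKM in the Gli2CA libraries and was listed at 0 in the 3 NTC libraries. The pigment genes Dct, Tyr, Tyrp1 and Mlana were listed at 0 in all 6 libraries, and Pmel had 2.88 FPKM in Gli2CA 1 and 0 in the others. The part of Sox10-bearing cells in the Cd63 difference was not tested.

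Lamp2 encodes a heavily glycosylated protein that lines the lysosome and serves chaperone-mediated autophagy. It lies on chromosome X, 38401357 to 38456454. Its levels were 175, 182 and 104 FPKM in Gli2CA and 67.2, 88.2 and 78.0 FPKM in NTC, with Gli2CA 3 the closest to the NTC libraries. The means of 154 ± 43.1 FPKM in Gli2CA and 77.8 ± 10.5 FPKM in NTC gave a log2 difference of 0.94 ± 0.33 (limma adjusted p = 0.364), between 0.80 and 1.20 when 1 library was left out. Its relative Lamp1 had another pattern. Lamp1 had 59.3, 61.7 and 356 FPKM in Gli2CA and 202, 129 and 99.3 FPKM in NTC, so Gli2CA 3 was the highest of all 6 libraries and the other Gli2CA libraries were the lowest. The log2 difference of Lamp1 was -0.33 ± 0.67 (limma adjusted p = 0.867), opposite in sign to that of its FPKM means, 159 ± 170.4 in Gli2CA and 144 ± 53.0 in NTC. It turned to 0.11 without Gli2CA 1 and 0.08 without Gli2CA 2. The ratio of Lamp2 to Lamp1 FPKM came to 2.96, 2.94 and 0.293 in Gli2CA 1, 2 and 3, against 0.332, 0.681 and 0.786 in NTC 1, 2 and 3. Exons of Grtp1 overlap Lamp1 on the opposite strand. Grtp1 had 5.37 FPKM in Gli2CA 3 and at most 0.940 FPKM elsewhere, and whether the counting used strand is not given. Cd68, a macrophage and dendritic cell scavenger protein of late endosomes, was the most abundant of the 4. It had 827, 1079.9 and 775 FPKM in Gli2CA and 782, 531 and 744 FPKM in NTC, with overlap between Gli2CA 3 and NTC 1 (limma adjusted p = 0.537).

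**Figure D2:**
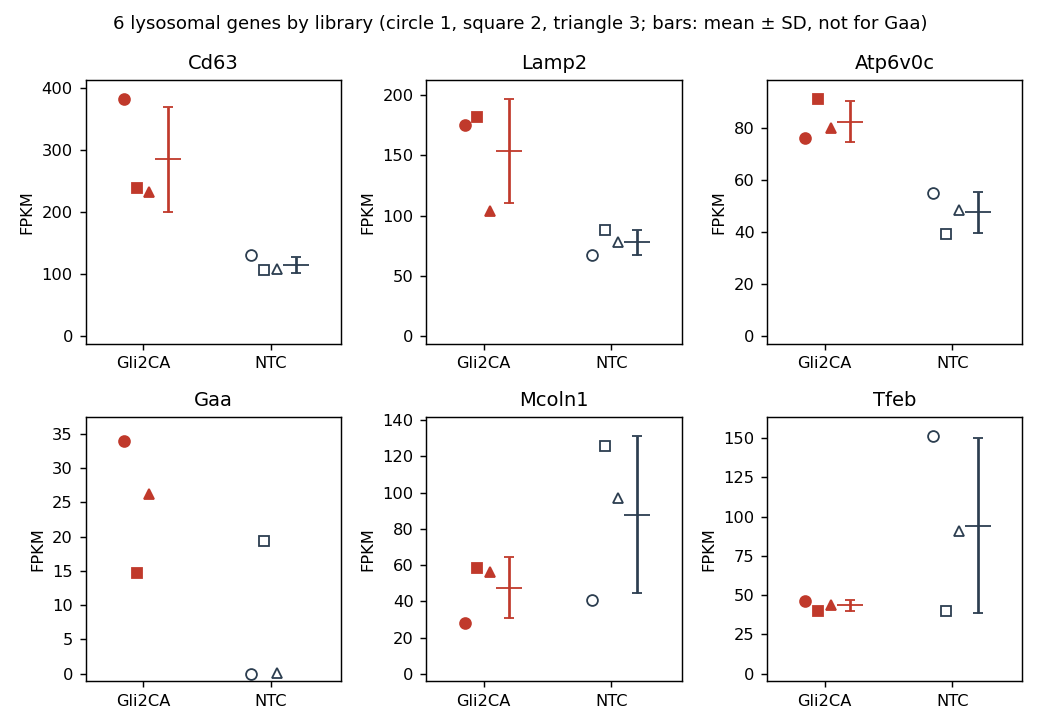
FPKM by library for 6 of the genes, Gli2CA on the left and NTC on the right of each panel, with symbols for libraries 1 (circle), 2 (square) and 3 (triangle) and bars for the mean ± SD except for Gaa. Cd63, Lamp2 and Atp6v0c have no overlap, and Gaa, Mcoln1 and Tfeb each have 1 NTC library within the Gli2CA range.

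In the V0 sector, Atp6v0c had a higher mean in Gli2CA without overlap, 4 other subunits overlapped between the groups, and Atp6v0d2 was detected in 1 library. Atp6v0c encodes the proteolipid that forms most of the rotating ring and lies on chromosome 17, 24163866 to 24169702. It had 76.3, 91.4 and 80.0 FPKM in Gli2CA, against 55.2, 39.3 and 48.5 FPKM in NTC. The 3 Gli2CA values lay close together and above all NTC values. The means were 82.6 ± 7.88 FPKM in Gli2CA and 47.7 ± 8.002 FPKM in NTC, a log2 difference of 0.79 ± 0.34 (limma adjusted p = 0.461) that stayed between 0.66 and 0.90 on leaving out each library. Its processed pseudogene Atp6v0c-ps2 had 13.8, 13.9 and 15.9 FPKM in Gli2CA and 13.1, 6.71 and 9.66 FPKM in NTC. Reads shared between such copies make the level of Atp6v0c uncertain.

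Atp6v0b, the second proteolipid of the ring, was the most abundant V0 gene, with 338, 412 and 558 FPKM in Gli2CA and 443, 355 and 400.8 FPKM in NTC. Atp6v0e, a small membrane subunit, had 184, 235 and 158 FPKM in Gli2CA and 281, 163 and 197 FPKM in NTC. Both overlapped widely. Atp6v0d1, which couples the ring to the central stalk, had 120.5, 103 and 86.7 FPKM in Gli2CA and 126, 92.0 and 88.9 FPKM in NTC, a log2 difference of 0.02 ± 0.31 (limma adjusted p = 0.985) that was -0.018 after median-of-ratios scaling. Its macrophage and osteoclast paralogue Atp6v0d2 was detected in Gli2CA 2 alone, at 13.2 FPKM or 510 recovered reads. It was listed at 0 in the other 5 libraries, where 3 reads, the limit that a count of 0 allows for counting error, would be at most 0.110 FPKM. The summed level of 12 macrophage markers was also highest in Gli2CA 2, at 10664 FPKM, and its part in the Atp6v0d2 level was not tested. Atp6v0a1, one form of the proton-channel subunit a, was low, with 8.84, 16.3 and 7.72 FPKM in Gli2CA and 24.1, 5.35 and 16.8 FPKM in NTC. Tcirg1, the subunit a form of lysosomes in osteoclasts and immune cells and no member of the set, was far higher, at 236, 241 and 246 FPKM in Gli2CA and 47.2, 142 and 194 FPKM in NTC. Its Gli2CA libraries lay above all NTC libraries (log2 difference 1.13 ± 0.48, limma adjusted p = 0.462).

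In the V1 sector, no gene had groups without overlap, and the 8 log2 differences ran from -0.23 to 0.93 with a median of 0.13. Atp6v1f, a subunit of the central stalk, was the most abundant, with 356, 432 and 427 FPKM in Gli2CA and 520.04, 356 and 454 FPKM in NTC. Atp6v1g1 and Atp6v1e1, which build the peripheral stalks, followed. Atp6v1g1 had 288, 246 and 285 FPKM in Gli2CA and 329, 278 and 356 FPKM in NTC. Atp6v1e1 had 198, 228 and 184 FPKM in Gli2CA and 297, 156 and 165 FPKM in NTC, NTC 1 being the highest. The catalytic head is built of the A and B subunits. Atp6v1b2, the B subunit of most cells, had 121, 203 and 114 FPKM in Gli2CA and 179, 118 and 107 FPKM in NTC. Atp6v1a, the catalytic A subunit, was uneven within both groups, with 78.3, 100.9 and 15.8 FPKM in Gli2CA and 25.7, 55.2 and 63.5 FPKM in NTC, and its lowest value was in Gli2CA 3. Its log2 difference of 0.16 ± 0.72 turned to -0.33 without Gli2CA 2, -0.23 without NTC 1 and -0.15 without Gli2CA 1, and it was 0.97 without Gli2CA 3.

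The largest V1 difference was in Atp6v1c1, the subunit that links the stalks to the membrane sector and, in yeast, is released when the pump comes apart. Atp6v1c1 had 132, 88.4 and 109.96 FPKM in Gli2CA, against 44.7, 115 and 35.0 FPKM in NTC. NTC 2 lay among the Gli2CA libraries, and NTC 1 and NTC 3 lay below them (log2 difference 0.93 ± 0.48, limma adjusted p = 0.512). With NTC 1 and NTC 3 both left out, which was decided after the data had been seen, the difference was -0.075. Atp6v1d, the rotating central stalk, had 141, 97.3 and 141 FPKM in Gli2CA and 46.2, 122 and 142 FPKM in NTC, only NTC 1 standing apart. Atp6v1h, a regulator of the assembled pump, had 50.1, 37.5 and 53.1 FPKM in Gli2CA and 37.7, 36.6 and 42.7 FPKM in NTC. Of the accessory genes, Atp6ap1, which helps assemble the V0 sector, had 602, 542 and 521 FPKM in Gli2CA, against 355, 482 and 435 FPKM in NTC. Its groups did not overlap, at a log2 difference of 0.40 ± 0.19 (limma adjusted p = 0.5005). Atp6ap2, the prorenin receptor, had 167, 175 and 117 FPKM in Gli2CA and 159.7, 182 and 87.0 FPKM in NTC, with wide overlap.

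**Figure D3:**
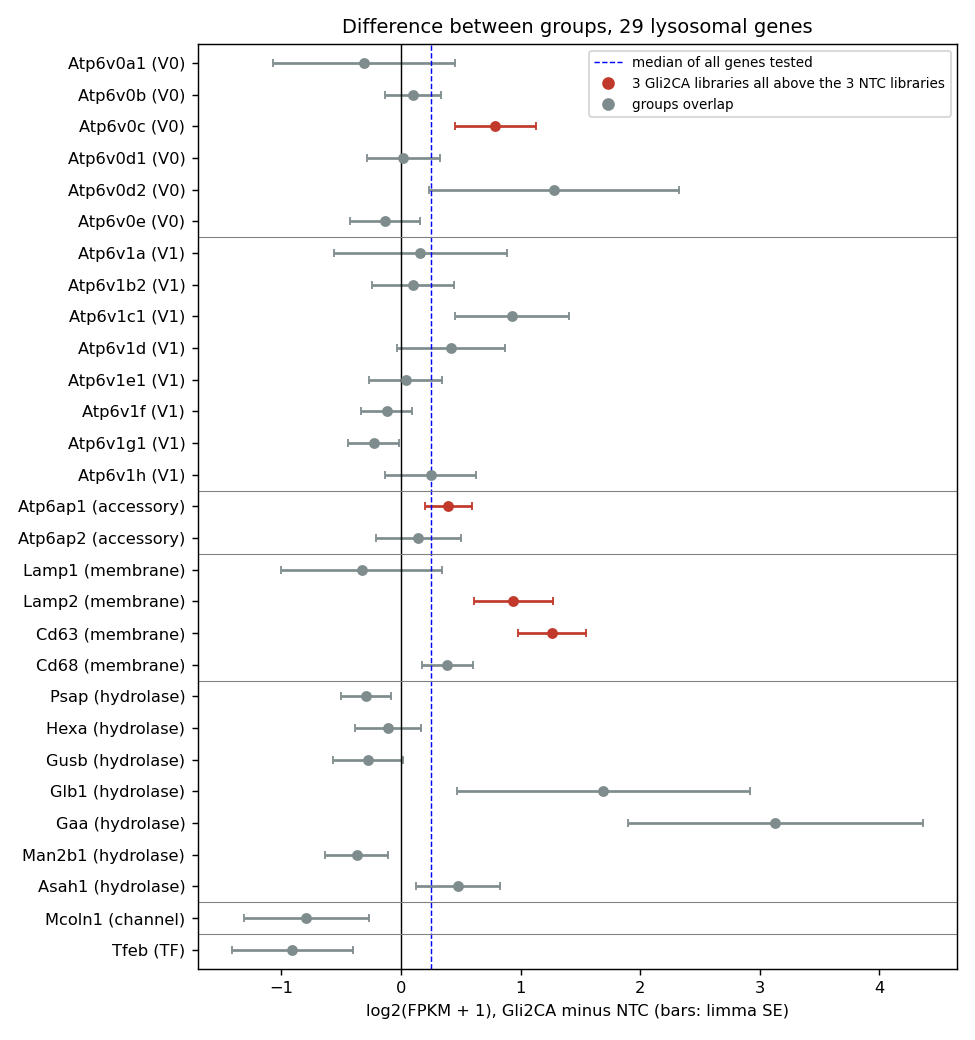
Log2 difference of each gene, Gli2CA minus NTC in log2(FPKM + 1), with limma standard errors as bars, 1 row per gene grouped by role. The dashed line is the median of all genes tested (0.25), and red marks the 4 genes without overlap, Atp6v0c, Atp6ap1, Lamp2 and Cd63. The V-ATPase genes other than Atp6v0d2, Atp6v1c1 and Atp6v0c lie between -0.31 and 0.42.

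The hydrolases and their activator comprised 5 abundant genes with overlapping groups and a pair of low genes, Gaa and Glb1, that were near 0 in some NTC libraries. Psap, whose product is cut into the saposins that help degrade sphingolipids, was the most abundant of the 29 genes. It had 1111, 1322 and 872 FPKM in Gli2CA, against 1060.2, 1469 and 1509.7 FPKM in NTC (log2 difference -0.29 ± 0.21, limma adjusted p = 0.653). Man2b1, the acid alpha-mannosidase, had 218, 308 and 173 FPKM in Gli2CA and 308, 295 and 279 FPKM in NTC, where the NTC values were close together and Gli2CA 2 matched them. Hexa, a subunit of beta-hexosaminidase, had 176, 226 and 159 FPKM in Gli2CA and 205, 157 and 249 FPKM in NTC, which overlapped widely. Both enzymes trim the sugar chains of glycoproteins or glycolipids. Gusb, the beta-glucuronidase, had 183, 159.7 and 120.2 FPKM in Gli2CA and 142, 223 and 197 FPKM in NTC. These 4 had the lower mean in Gli2CA, with log2 differences from -0.37 to -0.11, and all 4 overlapped. Hexa turned to 0.048 without NTC 3. Asah1, the acid ceramidase, had the higher mean in Gli2CA, at 299.8, 334 and 251 FPKM there and 123, 312 and 239.96 FPKM in NTC, NTC 1 being lowest.

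Gaa, the acid alpha-glucosidase that degrades glycogen, lies on chromosome 11, 119267887 to 119285454. It had 34.0, 14.7 and 26.2 FPKM in Gli2CA, against 0, 19.4 and 0.0885 FPKM in NTC 1, NTC 2 and NTC 3. The NTC libraries at or near 0 held 0 and 3 recovered reads, and NTC 2, with 792 reads, lay inside the Gli2CA range. The fitted log2 difference was 3.13 ± 1.23 (limma adjusted p = 0.423), and it was 0.27 without NTC 1 and NTC 3 and 5.05 with a pseudocount of 0.1. Glb1, the lysosomal beta-galactosidase, had 19.4, 33.0 and 24.7 FPKM in Gli2CA and 0.0409, 11.9 and 38.4 FPKM in NTC 1, NTC 2 and NTC 3. NTC 3 was the highest and NTC 1 the lowest of the 6. The fitted log2 difference of Glb1 was 1.69 ± 1.23 (limma adjusted p = 0.653) and was 0.21 without NTC 1 and 2.65 with a pseudocount of 0.1. Exons of Tmppe overlap Glb1 on the same strand, and Tmppe had 7.67, 0.503 and 1.59 FPKM in Gli2CA and 21.3, 8.09 and 2.17 FPKM in NTC, and reads that fit both genes make the levels of both uncertain. NTC 1 and NTC 3 are the libraries with 434 and 207 genes near 0, and the part of that shortfall in the differences of Gaa and Glb1 was not tested.

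The channel gene and the transcription factor gene had lower means in Gli2CA, with overlap. Mcoln1 encodes mucolipin 1, the calcium and iron channel whose opening activates Tfeb through calcineurin. It had 28.1, 58.5 and 56.3 FPKM in Gli2CA, against 40.6, 126 and 96.9 FPKM in NTC. NTC 1 lay within the Gli2CA range and the other NTC libraries above it (log2 difference -0.79 ± 0.52, limma adjusted p = 0.612). Tfeb lies on chromosome 17, 47737030 to 47792419, and had 46.6, 39.9 and 43.9 FPKM in Gli2CA, against 151, 40.2 and 91.1 FPKM in NTC. The Gli2CA values were nearly equal, and NTC 2 lay among them. The log2 difference of -0.91 ± 0.50 (limma adjusted p = 0.537) was 0.11 without NTC 1 and NTC 3.

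The genes of the pump and of the lysosome it serves were set side by side. The 16 V-ATPase genes had a median log2 difference of 0.12, with 12 positive and 4 negative, and the 11 hydrolase and membrane protein genes had a median of 0.39, with 6 positive and 5 negative. The first median was 0.12 also with Atp6v0d2 at its lower bound, computed against 3 reads over the NTC group. The second divided by kind, at 0.66 for the 4 membrane proteins and -0.11 for the 7 hydrolase and activator genes. It was 0.10 without NTC 1, 0.21 without NTC 2 and 0.24 without Gli2CA 2, and the first was 0.01 without Gli2CA 2 and 0.03 without NTC 3. Over the 6 left-out libraries the second ranged from 0.10 to 0.48 and the first from 0.01 to 0.20. These fits share most libraries, so the overlap of the ranges measures no spread. The difference between the medians was not tested. Over all genes tested the median was 0.25, with 10.6% at an unadjusted p under 0.05, against 1 of 16 V-ATPase genes and 3 of 11 hydrolase and membrane protein genes.

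Summed over the 16 V-ATPase genes, the level came to 2861, 3020 and 2858 FPKM in Gli2CA, against 2923, 2556 and 2640 FPKM in NTC, with NTC 1 within the Gli2CA range. Summed over the 11 hydrolase and membrane protein genes, it was 3487, 3961 and 3094 FPKM in Gli2CA and 3020, 3342 and 3542 FPKM in NTC, again with overlap. The ratio of the first sum to the second came to 0.820, 0.762 and 0.924 in Gli2CA, against 0.968, 0.765 and 0.745 in NTC. The 4 membrane protein genes alone summed to 1445, 1563 and 1469 FPKM in Gli2CA, above all 3 NTC libraries at 1182, 856 and 1029 FPKM. Cd68, whose groups overlapped, was the larger part of each of these sums. The 4 genes include Cd63 and Lamp2, named above for groups without overlap, so their sum is no separate support for a difference. The 7 hydrolase and activator genes summed to 2042, 2398 and 1626 FPKM in Gli2CA and 1838, 2486 and 2513 FPKM in NTC, of which Psap was the larger part. All 29 genes made up 0.782%, 0.855% and 0.718% of the summed FPKM in Gli2CA and 0.692%, 0.745% and 0.745% in NTC.

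**Figure D4:**
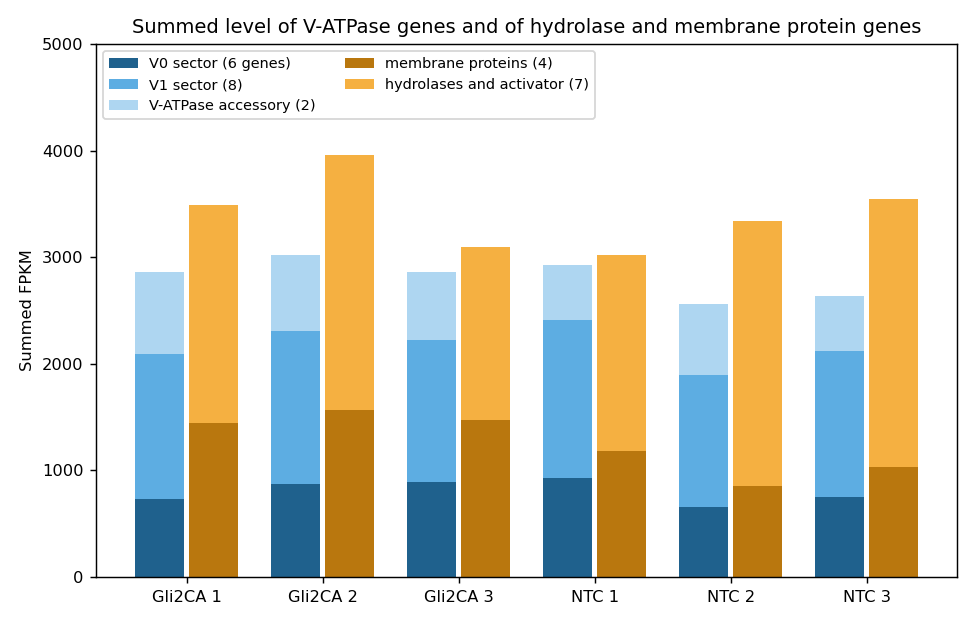
Summed FPKM per library of the 16 V-ATPase genes (blue, left bar, divided into the V0 sector, the V1 sector and accessory genes) and of the 11 hydrolase and membrane protein genes (orange, right bar, divided into membrane proteins, dark, and hydrolases with their activator, light). The 3 Gli2CA libraries stand left of the 3 NTC libraries, the membrane protein part is taller in every Gli2CA library than in any NTC library, and the blue bars span 2556 to 3020 FPKM.

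Other lysosomal genes, in 6 lists chosen by function, were read from the same fit. Of 132 entries, 119 were tested, 0 reached an adjusted p of 0.05, and 6 higher and 5 lower had an unadjusted p under 0.05 (9.24%, against 10.6% of all genes tested). Among 34 other hydrolases and activators, 3 were higher and 4 lower at that level (20.6%, against 10.6% of all genes tested), with a median of 0.23. Groups were without overlap in 4 higher and 4 lower genes (23.5%, against 16.6% of all genes tested). The list summed to 6169, 6156 and 6187 FPKM in Gli2CA, below all 3 NTC libraries at 7391.5, 6963 and 6791 FPKM. Ppt1, the palmitoyl-protein thioesterase, had 343 ± 32.3 FPKM in Gli2CA and 696 ± 115 FPKM in NTC (SD, n = 3 each), -1.01 ± 0.20 apart on the log2 scale (limma adjusted p = 0.195). Grn, which encodes progranulin, a glycoprotein that lysosomes need for their lipid enzymes, had 1240.1 ± 71.2 FPKM in Gli2CA and 823 ± 45.4 FPKM in NTC (log2 difference 0.59 ± 0.14, limma adjusted p = 0.216). Neither gene overlapped between the groups. Gla, the alpha-galactosidase A, had 28.6, 21.3 and 27.5 FPKM in Gli2CA and 0, 5.19 and 0.0246 FPKM in NTC, the same NTC libraries as for Gaa being at or near 0.

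Among 29 other membrane proteins, channels and transporters, 27 were tested, and 21 had a positive log2 difference, against 59.7% of all genes tested. The median was 0.80, against 0.25 over all genes tested. It was the value of Ostm1, with 26.6, 16.4 and 42.2 FPKM in Gli2CA and 0.0824, 42.3 and 83.0 FPKM in NTC. Summed levels overlapped, at 4644 to 5030 FPKM in Gli2CA and 3970 to 5092 FPKM in NTC. At an unadjusted p under 0.05, 1 gene was higher and 0 lower (3.70%, against 10.6% of all genes tested). That 1 gene was Tmem9, a lysosomal protein known from human cells to bind the accessory protein ATP6AP2, with 24.0, 18.4 and 19.8 FPKM in Gli2CA and 0.0512, 9.53 and 0.0415 FPKM in NTC (limma adjusted p = 0.324). Laptm4a, a lysosomal transmembrane protein, had 164 ± 35.2 FPKM in Gli2CA and 94.0 ± 35.7 FPKM in NTC. Slc15a3, a proton-coupled peptide and histidine transporter of lysosomes, had 29.4 ± 2.01 FPKM in Gli2CA and 12.4 ± 8.91 FPKM in NTC. Slc17a5, the sialic acid exporter, had 4.89, 8.41 and 9.78 FPKM in Gli2CA and 0, 6.38 and 0.0173 FPKM in NTC. Tmem9 and Slc17a5 again had their lowest values in NTC 1 and NTC 3.

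Of 18 other V-ATPase subunits and assembly factors, 9 were tested, with a median of 0.79, against 0.25 over all genes tested. Groups were without overlap in 3 higher genes and 1 lower (44.4%, against 16.6% of all genes tested). At an unadjusted p under 0.05, 1 gene was higher and 1 lower (22.2%, against 10.6% of all genes tested). Tcirg1, given above, was the higher one. The lower was Rogdi, a partner of Dmxl2 and Wdr7, which form a complex whose yeast counterpart loads V1 onto V0, at 164, 177 and 178 FPKM in Gli2CA and 203, 315 and 792 FPKM in NTC (log2 difference -1.09 ± 0.45, limma adjusted p = 0.444). Its partners were low. Dmxl2 had 3.34, 0.241 and 3.78 FPKM in Gli2CA and was listed at 0 in all NTC libraries. It passed the level filter only through the Gli2CA libraries. Its place among the tested genes, in the list median and in the count without overlap is therefore no support for a difference. Wdr7 had 5.21, 6.69 and 4.54 FPKM in Gli2CA and 0, 3.36 and 0.935 FPKM in NTC. In 9 tested sorting genes the median was 0.0033. At an unadjusted p under 0.05, 1 of them was higher and 0 lower (11.1%, against 10.6% of all genes tested). The higher was Igf2r, the large mannose 6-phosphate receptor, at 8.38, 7.59 and 4.64 FPKM in Gli2CA and 0.0643, 1.72 and 1.58 FPKM in NTC. Gnptab, which makes the mannose 6-phosphate tag, had 5.19, 21.9 and 21.8 FPKM in Gli2CA and 0.0495, 13.5 and 0 FPKM in NTC. NTC 1 and NTC 3 held few or no reads of it. The adaptor gene Gga3, whose product carries such receptors from the Golgi, had 15.0 ± 4.49 FPKM in Gli2CA and 16.5 ± 14.9 FPKM in NTC. Gga1, another of these adaptors, had 50.9 ± 8.43 FPKM in Gli2CA and 43.7 ± 15.0 FPKM in NTC.

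Among 20 tested regulators of lysosomal genes, 0 passed limma's adjusted threshold or an unadjusted p under 0.05, and the median was 0.04. Flcn, folliculin, which keeps Tfeb under mTORC1, had 29.6, 14.002 and 31.5 FPKM in Gli2CA and 0.136, 6.84 and 26.4 FPKM in NTC. Lamtor1 and Lamtor5, parts of the Ragulator scaffold that brings mTORC1 to the lysosome, had mean differences of opposite sign. Lamtor1 had 88.1 ± 16.9 FPKM in Gli2CA and 122 ± 15.3 FPKM in NTC. Lamtor5 had 243 ± 40.3 FPKM in Gli2CA and 188 ± 7.76 FPKM in NTC. Mitf, a relative of Tfeb that governs melanocytes, had 1.43, 5.93 and 0.817 FPKM in Gli2CA and 0, 1.34 and 0 FPKM in NTC. It averaged 0.448 FPKM in NTC and passed the level filter of 1 FPKM only through the Gli2CA libraries. Autophagy genes had 17 of 20 positive log2 differences, against 59.7% of all genes tested, and a median of 0.46, against 0.25. There were 0 at an unadjusted p under 0.05 and 0 with groups without overlap. Of the 17, Wipi1 averaged 0.622 FPKM in NTC and passed the level filter only through the Gli2CA libraries. Its place in the count and the median is therefore no support for a difference. Map1lc3a, Atg7 and Wipi2, also among the 17, were at or near 0 in NTC 1. Summed autophagy levels overlapped, at 1874 to 2149 FPKM in Gli2CA and 1540 to 1899 FPKM in NTC. Their receptor gene Sqstm1, which encodes p62, had 479.7 ± 76.1 FPKM in Gli2CA and 360.3 ± 59.5 FPKM in NTC. Becn1, of the kinase complex that starts autophagosomes, had 98.7 ± 20.1 FPKM in Gli2CA and 64.4 ± 25.3 FPKM in NTC. Atg16l1, which helps lipidate the autophagosome protein LC3, had 15.3, 19.5 and 28.04 FPKM in Gli2CA and 0.640, 32.5 and 0.0768 FPKM in NTC. Vps18, of the complexes that tether late endosomes to lysosomes, had 13.6, 17.1 and 8.21 FPKM in Gli2CA and 0.0143, 16.9 and 0.882 FPKM in NTC. In both genes NTC 2 was the only NTC library above 1 FPKM.

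**Figure D5:**
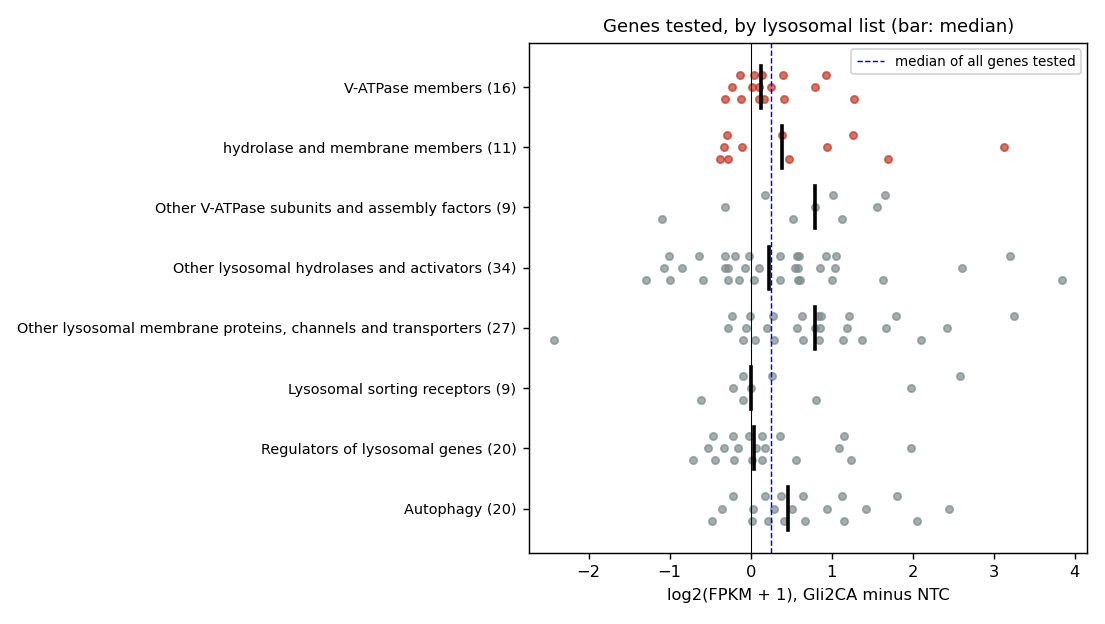
Log2 difference of each gene tested, Gli2CA minus NTC in log2(FPKM + 1), for the V-ATPase genes and the hydrolase and membrane protein genes of the set (red) and for 6 other lysosomal lists (grey), with a black bar at each median. The dashed line marks 0.25, the median of all genes tested, and the medians run from 0.0033 for sorting receptors to 0.80 for other membrane proteins. The 0.80 is the value of Ostm1, which was near 0 in NTC 1.

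Markers of the cell types that a CD11c gate can hold also differed between the libraries. All 10 monocyte markers had the higher mean in Gli2CA, and they summed to 3396 to 4788 FPKM there, against 1663 to 2098 FPKM in NTC. All 9 markers of type 1 conventional dendritic cells had the lower mean, with sums of 722 to 815 FPKM in Gli2CA and 1202 to 2132 FPKM in NTC. Irf8, at 497 to 1371 FPKM over the libraries, was the larger part of each of these sums. Of 7 type 2 markers, 6 had a negative log2 difference, with overlapping sums of 1202 to 2013 FPKM in Gli2CA and 1729 to 2371 FPKM in NTC. Of 6 markers shared by conventional dendritic cells, 5 were negative and Itgax was positive. Of 5 plasmacytoid dendritic cell markers, 3 were positive. The sums of both these lists overlapped between the groups. H2-Ab1, at 26996 to 42699 FPKM, was nearly all of the shared conventional dendritic cell sum, which therefore says little of the other markers in that list. Of 12 macrophage markers, 8 had a positive log2 difference, with overlapping sums of 6050 to 10664 FPKM in Gli2CA and 6506 to 9135 FPKM in NTC. All 6 markers of mature dendritic cells had the lower mean, with sums of 227 to 469.7 FPKM in Gli2CA and 469.6 to 1129 FPKM in NTC. Of 6 T and NK cell markers, 5 had the lower mean, with sums of 1238 to 1718 FPKM in Gli2CA and 1671 to 3236 FPKM in NTC. Neutrophil markers summed to 18.0 to 309 FPKM in Gli2CA and 56.7 to 76.8 FPKM in NTC, with the defining genes Ly6g and Retnlg listed at 0 in every library. Fibroblast markers summed to 60.0 to 327 FPKM in Gli2CA and 1.41 to 3360.5 FPKM in NTC, the highest in NTC 2. The monocyte and type 1 dendritic cell sums divided the groups as Cd63, Lamp2, Atp6v0c and Atp6ap1 did, and their part in those differences was not tested.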

How the data were processed

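Poly(A)-selected RNA of 6 libraries was sequenced after a NEBNext Ultra II preparation, per the labels' protocols. The authors deposited 1 table of FPKM values, 54532 Ensembl IDs by 6 libraries; the sources used here give no aligner, build, annotation or strand of counting. Columns were matched to libraries by the sample descriptions and are numbered by title. In the deposited FPKM, 97.0% to 98.4% of low values were whole reads (within 0.05 read) given the mean transcript lengths of GENCODE M21, which gave the fragment totals.

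limma 3.58.1 (R 4.3.3) was fitted to log2(FPKM + 1) with a variance trend over the 12266 genes that averaged 1 FPKM or more, two-sided, with Benjamini-Hochberg adjustment at 0.05; SE are limma's. An exact permutation test of 3 against 3 libraries cannot go below p = 0.1. The fit code was checked on simulated data, with its pass mark set at a smaller spread than most genes had here. Power at the real spread is not given. Motifs were searched as exact letters in RefSeq windows, and positions are 1-based. Intervals and floors cover counting error only. All 29 genes are named, with the 4 genes of smallest p in each other list (1 hydrolase is not reported here); other named genes were chosen after their values were seen. The genes and lists were chosen with earlier results of these data known. Other pseudocounts, filters, scalings, variance models, replicate blocks, voom on recovered reads and left-out libraries were also run.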

Additional observations from a re-analysis of the deposited data

How the results depend on the processing

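No setting tried brought any of the 29 genes past limma's adjusted threshold, and 13 of the 29 kept the sign of their difference in all 19 other settings, among them Cd63, Lamp2, Atp6v0c and Atp6ap1. Over all genes, 21 passed after quantile normalization. The count of the 29 genes at an unadjusted p under 0.05, 4 as reported, was 2 without a variance trend, 1 with a replicate block by description number, and 1 to 6 when 1 library was left out. The same count over all genes, 1304, was 393 with that block, 817 without Gli2CA 1 and 2450 without NTC 2. The V-ATPase median ranged from 0.01 to 0.20 and the hydrolase and membrane protein median from 0.10 to 0.48 over left-out libraries. The V-ATPase median was -0.076 with the block by description number. In that block Gli2CA 2 and NTC 3 had no partner, so its differences rested on the 2 pairs with the same number alone. A replicate block by title number gave 3 of the 29 genes and left both medians at 0.12 and 0.39. Libraries with the same title number did not deviate together (correlations -0.042, -0.0018 and -0.0066), nor did the 2 pairs with the same description number (-0.042 and -0.064), so the numbers were not taken as pairs.

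Signs turned in these cases. With median-of-ratios scaling, Atp6v0d1 was -0.018 and Atp6v1e1 -0.00027. With the replicate block by description number, Atp6v0d1 was -0.073, Atp6v1a -0.086, Atp6v1b2 -0.31, Atp6v1e1 -0.17 and Atp6ap2 -0.28. Without NTC 1 and NTC 3, Atp6v0a1 was 0.84, Atp6v0e 0.22, Atp6v1a -0.13, Atp6v1c1 -0.075, Atp6v1f 0.18, Atp6ap2 -0.27, Hexa 0.24, Asah1 -0.091 and Tfeb 0.11. Leaving out 1 library gave ranges that include 0: -0.89 to 0.10 for Atp6v0a1, -0.095 to 0.27 for Atp6v0b, -0.096 to 0.18 for Atp6v0d1, -0.31 to 0.083 for Atp6v0e, -0.33 to 0.97 for Atp6v1a, -0.16 to 0.32 for Atp6v1b2, -0.078 to 0.72 for Atp6v1d, -0.13 to 0.33 for Atp6v1e1, -0.27 to 0.0045 for Atp6v1f, -0.18 to 0.35 for Atp6ap2, -1.17 to 0.11 for Lamp1 and -0.28 to 0.048 for Hexa. That range was 0 to 1.91 for Atp6v0d2, whose difference was 0 without Gli2CA 2, the only library with reads of it. The cause of the turned signs was not tested. Fewer libraries entered the last 2 kinds of fit. In the block by description number, Gli2CA 2 and NTC 3 each stood alone and added nothing to the difference. With 3 libraries a group, mixed cell types in a CD11c gate and reads missing for many genes in NTC 1 and NTC 3, the differences of low genes are the least certain.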

Other observations

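The summed V1 sector exceeded the summed V0 sector in every library, by a ratio of 1.88, 1.65 and 1.49 in Gli2CA and 1.59, 1.89 and 1.82 in NTC. The ratio overlapped between the groups.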
